A study of Mus musculus with 47 samples.

Results

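The genes described here are a list of 35 stromal and endothelial genes of the mouse spleen, and they were followed across 47 leukaemic spleens, 1 array per mouse. Each gene was represented by the probe set, among those that the platform annotation assigns to 1 gene, with the highest mean over the 47 arrays. Such a probe set was found for 33 of the 35 genes, and all 33 passed the filter on low values, among 18178 of 18193 genes that passed. Ccl19 and Ccl21a, chemokines of the T cell zone, lie only on probe sets that name several genes and are not reported. By role, 13 of the 33 members belong to fibroblasts and interstitial matrix, 2 are the collagen IV chains of basement membranes, 3 are contractile, 4 belong to lymphoid stroma and 11 are endothelial.

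All mice carried a Sleeping Beauty mutagenesis system. Its parts were the transgene Tg(ACTB-cre)2Mrt, whose beta-actin promoter drives Cre recombinase in most tissues, the transposase allele Gt(ROSA)26Sortm2(sb11)Njen, and a transposon array of either the line TgTn(sb-T2/Onc2)6070Njen (26 mice) or the line TgTn(sb-T2/Onc2)6113Njen (21 mice). Cre was thus not restricted to blood cells, and stromal and endothelial cells are not spared by the design. The diagnosis of every mouse was an undifferentiated myeloid leukaemia at the terminal stage, and the arrays include no spleen of a healthy mouse, so none of the values below is a difference from normal spleen. A label states whether the tumour had a transposon insertion at Erg, which was so for 26 mice and not for 21. The age label ran from 49 to 97 in the first of these groups and from 32 to 89 in the second, with no unit given. Within a group, arrays are numbered in accession order, which is only a name. The female transcript Xist (present when above log2 7) matched the sex label in 23 arrays and did not match it in 24, so whether labels and arrays pair correctly is not settled. Comparisons that use no label come first for that reason.

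The stroma of the spleen is the scaffold in which blood cells lodge. Fibroblastic reticular cells lay down fibres of collagens I, III and VI, smooth muscle and myofibroblast-like cells of the capsule and trabeculae contract, and stromal cells of the white pulp secrete chemokines that draw B and T lymphocytes into follicles and T cell zones. Blood flows through sinuses lined by endothelium that stands on a discontinuous basement membrane of collagen IV. In whole tissue, fewer cells of a type and less RNA per cell cannot be told apart, and this holds for every value below.

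Promoters were taken from RefSeq (GRCm38.p6, windows of 300 bases, 250 before and 50 after the start of the gene). A promoter was found for 23 of the 35 genes, and a few are shown because the results turn on their genes. Col4a1 and Col4a2 start head to head on opposite strands, and the capitals mark the 78 bases that both windows share (chr8:11312777-11312854). The annotated start sites of the pair lie 21 bases apart, each inside the transcript of the other, and 73.1% of the shared bases are G or C. The window of Col4a1 is chr8:11312777-11313076 on the minus strand and that of Col4a2 is chr8:11312555-11312854 on the plus strand.
Col4a1: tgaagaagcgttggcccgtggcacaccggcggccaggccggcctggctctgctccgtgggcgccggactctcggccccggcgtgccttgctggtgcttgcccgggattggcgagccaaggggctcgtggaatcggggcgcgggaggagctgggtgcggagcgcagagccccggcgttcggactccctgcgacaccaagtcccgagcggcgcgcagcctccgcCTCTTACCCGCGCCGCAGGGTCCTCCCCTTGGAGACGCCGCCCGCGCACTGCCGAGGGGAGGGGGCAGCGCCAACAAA
Col4a2: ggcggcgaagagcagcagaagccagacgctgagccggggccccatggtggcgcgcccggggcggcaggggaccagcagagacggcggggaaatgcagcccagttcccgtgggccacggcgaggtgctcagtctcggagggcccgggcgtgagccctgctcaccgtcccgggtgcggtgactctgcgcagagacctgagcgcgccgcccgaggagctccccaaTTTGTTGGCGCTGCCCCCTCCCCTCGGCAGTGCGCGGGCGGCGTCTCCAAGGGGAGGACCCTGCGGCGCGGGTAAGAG

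The next promoters belong to the fibrillar collagen Col3a1 (chr1:45311288-45311587, plus strand), to the follicle chemokine Cxcl13 (chr5:95956689-95956988, plus strand) and to the contractile gene Myl9 (chr2:156775214-156775513, plus strand). In Col3a1 and Cxcl13 the capitals mark the letters TATAAA, which start at position -117 and position -46 from the start site. In Myl9 they mark a CArG box, the site that serum response factor binds in smooth muscle genes, which runs from -161 to -152 and reads CCTAATAAGG.
Col3a1: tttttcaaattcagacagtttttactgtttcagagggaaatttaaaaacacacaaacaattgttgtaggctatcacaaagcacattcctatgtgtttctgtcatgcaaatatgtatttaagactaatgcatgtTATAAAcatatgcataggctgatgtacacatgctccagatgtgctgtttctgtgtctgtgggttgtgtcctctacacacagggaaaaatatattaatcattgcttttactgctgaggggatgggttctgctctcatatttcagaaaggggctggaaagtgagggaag
Cxcl13: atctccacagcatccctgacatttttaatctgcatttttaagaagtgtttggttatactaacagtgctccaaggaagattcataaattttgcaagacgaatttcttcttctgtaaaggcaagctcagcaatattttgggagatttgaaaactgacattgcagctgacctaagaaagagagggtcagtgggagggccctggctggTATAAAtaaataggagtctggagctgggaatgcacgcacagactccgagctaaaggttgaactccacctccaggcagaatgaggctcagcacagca
Myl9: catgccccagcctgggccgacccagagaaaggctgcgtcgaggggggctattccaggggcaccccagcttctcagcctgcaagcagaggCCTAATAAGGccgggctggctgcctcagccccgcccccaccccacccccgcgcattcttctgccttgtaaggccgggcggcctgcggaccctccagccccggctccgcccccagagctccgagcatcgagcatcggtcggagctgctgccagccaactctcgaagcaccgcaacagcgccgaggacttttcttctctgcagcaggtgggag

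The shares of promoters with these letters rest on few genes. Searched on both strands with a strict consensus, a CArG box was present in 1 of 24 promoters of members (4.17%) and in 1.63% of all 32841 promoters. TATAAA was present in 3 of the 24 (12.5%, in Col3a1, Cxcl13 and Flt1) and in 13.6% of all promoters, and the ETS-type letters CAGGAAG in 2 (8.33%, in Col6a1 and Emcn) and in 13.3% of all. A match is a run of letters and not a measured site.

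Of the 33 members, 29 varied more between spleens than the median gene on the array. The SD over the 47 arrays had a median of 0.286 log2 units among the 33 members and 0.104 among all tested genes, and the SD of 14 members lay above the 90th percentile of all genes. Levels of different genes are not set against each other here, since each probe set has its own response. As a mark of signal, 2 members (Sparc and Vcam1) were above log2 7 in all 47 arrays, 12 in some arrays and 19 in none. The 19 were 9 of 11 endothelial, 7 of 13 fibroblast and matrix, 2 of 3 contractile and 1 of 4 lymphoid stroma members. The 25th percentile of all values was log2 5.08, so differences of dim genes are compressed. Array medians lay between 5.19 and 5.24 and the filter removed only 15 genes, so all tested genes include many dim ones. The SD of the members was not compared with that of genes of like level.

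**Figure D1:**
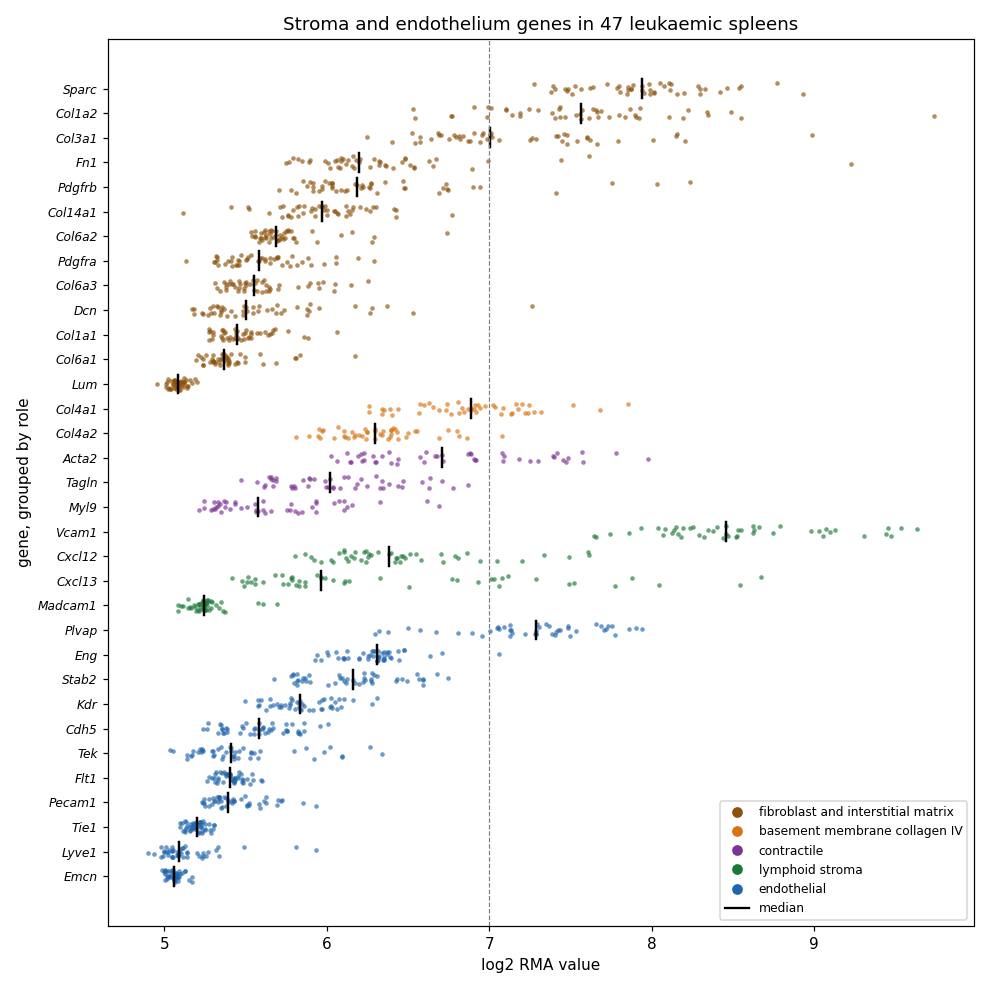
Log2 RMA values (horizontal axis) of the 33 measured stroma and endothelium genes in 47 leukaemic spleens, 1 point per array, coloured by role, with black bars at the medians and a dashed line at log2 7. Col1a2, Fn1 and Cxcl13 reach far to the right of their medians (highest values 9.74, 9.23 and 8.67), whereas Emcn, Tie1 and Lum stay in narrow bands near log2 5.

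Among fibrillar collagens and their partners, Col1a2, a chain of collagen I, ran from a lowest value of 6.53 through a median of 7.56 to a highest of 9.74, which is a 9.25-fold span. Col3a1, the chain of the reticular fibre collagen III, ran from 6.25 through 7.00 to 8.99. Both were highest in the same array, number 15 of the Erg insertion label group. Col1a1, the partner of Col1a2, stayed between 5.27 and 6.06 on its probe set. Fn1, which encodes fibronectin, had the widest span of the matrix genes: 5.75 at the lowest, 6.20 at the median and 9.23 at the highest, 11.1-fold apart. Only 3 arrays exceeded log2 7 for Fn1, so its span rests on few spleens. Sparc, a collagen-binding matricellular protein, ran from 7.27 through 7.94 to 8.93.

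The small proteoglycans Dcn (decorin, 5.17 through 5.50 to 7.26) and Lum (lumican, 4.95 through 5.09 to 5.20) bind collagen fibrils. Decorin exceeded log2 6 in 6 arrays, and lumican in none. The PDGF receptor Pdgfrb of pericytes and fibroblasts ran from 5.70 through 6.18 to 8.24, with 4 arrays above log2 7, and Pdgfra from 5.13 through 5.58 to 6.29. Col14a1, a fibril-associated collagen, ran from 5.12 through 5.97 to 6.77. The collagen VI chains Col6a1, Col6a2 and Col6a3 had medians of 5.37, 5.69 and 5.55 and highest values of 6.18, 6.74 and 6.26.

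Col4a1 ran from 6.26 through 6.89 to 7.85 and Col4a2 from 5.81 through 6.30 to 7.08. Col4a1 therefore lay above log2 6 in 47 of 47 arrays. In the contractile group, smooth muscle actin Acta2 ran from 6.03 through 6.71 to 7.98, the actin-binding protein transgelin (Tagln) from 5.47 through 6.02 to 6.87, and the myosin light chain Myl9 from 5.21 through 5.57 to 6.69. The interquartile range of Acta2 was 0.92 log2 units, the widest of the members after Cxcl13.

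Cxcl13, the chemokine that draws B cells into follicles, had the widest interquartile range of the members (1.27 log2 units). Its values ran from 5.42 through 5.96 to 8.67, a 9.51-fold span, with 13 arrays above log2 7, and its SD exceeded that of 99.0% of all tested genes. A second probe set for Cxcl13 followed the first with r = 0.97. Vcam1, an adhesion molecule of stroma, activated endothelium and red pulp macrophages, ran from 7.65 through 8.46 to 9.63. Cxcl12, the chemokine of stem cell niches, ran from 5.80 through 6.38 to 7.62, and Madcam1, the addressin of the marginal sinus, from 5.08 through 5.24 to 5.70.

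Of the endothelial genes, Plvap, the diaphragm protein of fenestrated vessels, ran from 6.30 through 7.29 to 7.94, with 38 arrays above log2 7. The only other endothelial member to pass log2 7 was Eng, in 1 array. The scavenger receptor Stab2 of sinus endothelium ran from 5.68 through 6.16 to 6.74, and endoglin (Eng), a co-receptor for TGF-beta ligands, from 5.93 through 6.31 to 7.06. The VEGF receptor Kdr ran from 5.50 through 5.83 to 6.31 and VE-cadherin (Cdh5) from 5.24 through 5.59 to 6.01. Pecam1 (CD31), the general endothelial marker, stayed between 5.23 and 5.94 with a median of 5.39, and above log2 6 in 0 of 47 arrays. Its single probe set therefore showed little signal in these spleens. Tek, the angiopoietin receptor, reached 6.34 from a median of 5.41, and Lyve1, a hyaluronan receptor, 5.93 from 5.09. Flt1, Tie1 and the sialomucin Emcn never exceeded 5.60, 5.31 and 5.17.

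High values of several members fell in the same few spleens. Array 15 of the Erg insertion label group (line 6113, age label 83) was among the 3 highest arrays for 14 of 33 members, which were 8 fibroblast and matrix genes, both collagen IV chains, Acta2, Tagln, Kdr and Flt1. Array 13 of the same label group (line 6070) was among the 3 highest for 9 members, and array 16 (line 6113) for 7, with Cxcl13 at 8.67 and Dcn at 7.26. Array 20 of the group without the insertion label was among the 3 lowest for 11 members, which included Col1a2, Col3a1, Acta2, Tagln and Cxcl12. Such counts were made for members only and have no share of all tested genes beside them. Whether these arrays were extreme for stromal genes in particular was not tested. Each of the 7 main predictors below was refitted without array 15, without array 11 of the Erg insertion label group, and without the 2 arrays most extreme for that predictor, singly and together. Array 20 was not left out on its own.

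Across arrays, the matrix genes were correlated with the contractile genes and little with the endothelial genes. Of the 528 pairs of members, 14.0% had a Pearson r above 0.5 and 25.4% an r below 0, with a median of 0.18. Of the 165210753 pairs of all tested genes, 2.54% had an r above 0.5 and 48.4% an r below 0, with a median of 0.01. Many of all tested genes were dim, and no comparison with genes of like level was made, here or for the shares below. The median r was 0.32 over the 78 pairs of fibroblast and matrix genes, 0.41 between these and the contractile genes, and 0.05 over the 143 pairs of a matrix and an endothelial gene. Over the 55 pairs of endothelial genes it was 0.18, with 14.5% of pairs above 0.5 and 27.3% below 0, which is close to the values over all pairs of members. It was 0.39 between the collagen IV chains and the endothelial genes, and -0.06 between contractile and endothelial genes.

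For role means, each member was standardised over the arrays and averaged within its role. The fibroblast and matrix mean correlated with the contractile mean (r = 0.68, Spearman's rho 0.68) and with the collagen IV mean (r = 0.66, rho 0.58). With the endothelial mean it had r = 0.18 and rho 0.16. The collagen IV mean had r = 0.53 and rho 0.51 with the endothelial mean. Within line 6070 and within line 6113 the matrix and contractile means had r = 0.72 and r = 0.65. All correlations are over the same 47 arrays, which share 1 normalization, and those between role means are descriptions with no test.

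**Figure D2:**
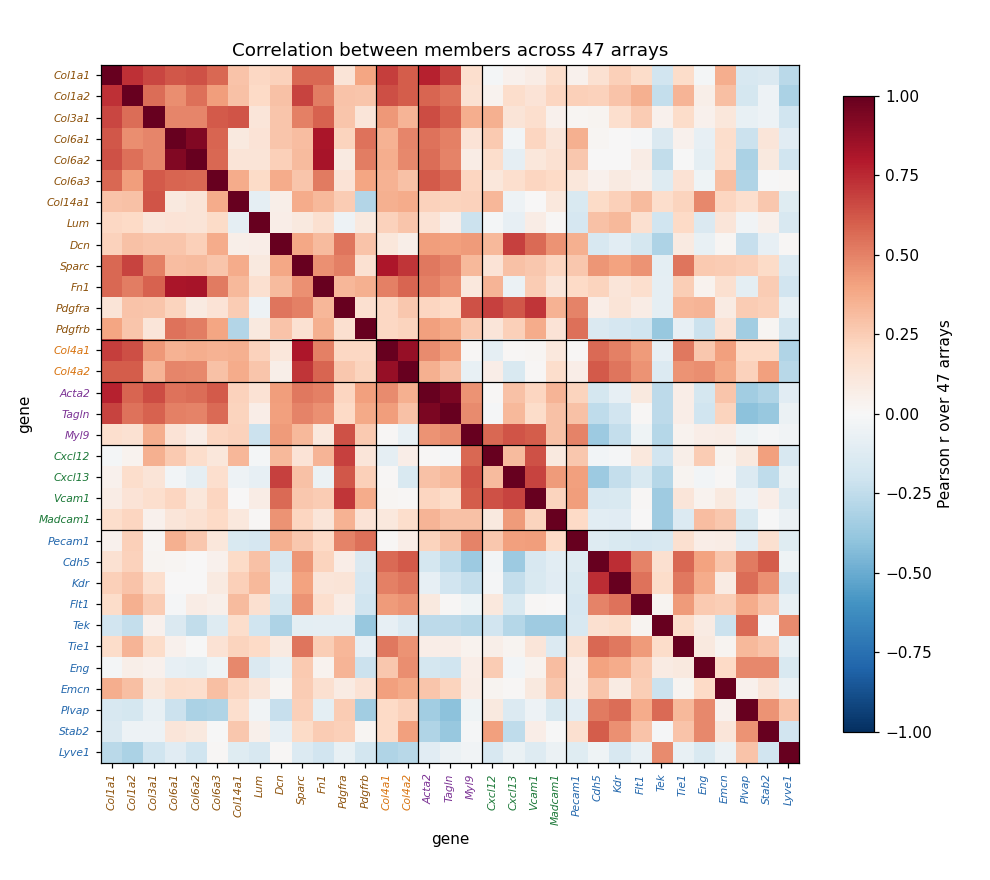
Pearson r over 47 arrays for every pair of the 33 members, ordered by role, with role borders as black lines and gene names in the role colours (red positive, blue negative). A red block holds the collagens, Sparc, Fn1, Acta2 and Tagln, a smaller one Cdh5, Kdr and Flt1, and the last joins Pdgfra, Dcn and Myl9 to Cxcl12, Cxcl13 and Vcam1; Pecam1 is pale or blue against the other endothelial genes.

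To test which genes vary with a member, the slope of every other tested gene on that member was fitted with limma over the 47 arrays and adjusted by Benjamini-Hochberg over all 18177 genes. A gene is said to rise or fall with the member when its adjusted p was under 0.05. With Col3a1 as predictor, 7 of the 32 other members rose (21.9%), beside 0.347% of all tested genes. They were Col1a1, Col1a2, Col6a3, Col14a1, Fn1, Acta2 and Tagln, so 5 of 12 matrix genes and 2 of 3 contractile genes, and 0 of 11 endothelial members. No member fell, beside 0.022% of all genes. The slope of Acta2 was 0.62 ± 0.11 log2 units per log2 unit of Col3a1 (SE, limma adjusted p = 0.00136) and that of Col1a2 was 0.59 ± 0.13 (limma adjusted p = 0.0147). Among 24 other matrix genes that were tested, 8 rose, and among 26 other endothelial genes 0. The matrix genes with the highest r were Bgn (biglycan, 0.63), Loxl1 (a collagen and elastin crosslinking enzyme, 0.62) and Col5a2 (the collagen V chain, 0.62). Of all genes outside the list, Fkbp9 (0.79), Olfml3 (0.70), Prss23 (0.67), Itga1 (a collagen-binding integrin chain, 0.66), Ctsk (the collagen-cleaving cathepsin K, 0.66) and Klhl13 (0.65) were most like Col3a1. The lowest r belonged to Smug1 (-0.55), Psmb3 (-0.54), Sf3b5 (-0.53) and Dctn6 (-0.52). Of 18 matrix growth factors and their targets 1 rose, Pdgfb (a PDGF ligand, 0.53), and Ltbp3 (0.44) and Vegfc (0.43) came next without passing the test. Without array 15 of the Erg insertion label group, 4 members rose with Col3a1 and Col1a2, Col6a3 and Fn1 were lost. Without that array and array 21, the next most extreme for Col3a1, only Col14a1 remained, and only Col14a1 was called on ranks.

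Fibronectin and collagen VI moved together. Col6a1 and Col6a2, neighbouring genes on the same chromosome, had r = 0.93 but rho 0.64 (permutation p = 1e-05, the smallest that 100000 resamples allow, and 2e-05). Col6a1 and Fn1 had r = 0.82 and rho 0.58. Most arrays lay close together for both chains and a few lay far out. With the 2 most extreme arrays left out, r fell to 0.85 for Col6a1 with Col6a2 and to 0.60 for Col6a1 with Fn1. Array 11 of the Erg insertion label group held the highest values of Fn1 (9.23), Col6a1 (6.18) and Col6a2 (6.74) while its Cxcl13 was among the 3 lowest. The decorin and lumican genes are also neighbours on a chromosome, and they had r = 0.07 and rho 0.10 (permutation p = 0.656 and 0.494), with lumican at the floor.

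Col4a1 varied most closely with its divergent neighbour. Col4a1 and Col4a2 had r = 0.87 and rho 0.86 (permutation p = 1e-05 for each), and r = 0.84 without the 2 farthest arrays. The slope of Col4a2 on Col4a1 was 0.66 ± 0.05 (SE, limma adjusted p = 1.13e-11). Sparc, whose protein binds collagen IV, followed with r = 0.80 and rho 0.81. In all, 5 of the 32 other members rose with Col4a1 (15.6%), beside 0.264% of all genes: Col4a2, Sparc, Col1a1, Col1a2 and Cdh5. No member fell, beside 0.0055% of all genes. Outside the list, the genes most like Col4a1 were Gask1b (0.79), Nid1 (nidogen, which links laminin and collagen IV networks, 0.76), Serpinh1 (the collagen chaperone HSP47, 0.75), Col5a2 (0.75), the endothelial gene Ecscr (0.70) and Atp8b1 (0.68). At the other end, Polr3d (-0.53) fell, and Nmd3 (-0.52), Thap6 (-0.52) and Sgsm3 (-0.51) did not pass the test. Of 24 other matrix genes 5 rose and of 26 other endothelial genes 3. With arrays 15 and 13 of the Erg insertion label group left out, the most extreme for Col4a1, Col4a2 and Sparc alone were called. Within either transposon line 2 members were called.

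The contractile genes Acta2 and Tagln had r = 0.94 and rho 0.91 (permutation p = 1e-05 for each), the tightest pair among the members. With Tagln as predictor, 10 of the 32 other members rose (31.2%), beside 1.28% of all genes, namely Acta2 and Myl9 and 8 of 13 fibroblast and matrix genes. No member fell, beside 1.49% of all genes. Acta2 had a slope of 1.37 ± 0.07 log2 units per log2 unit of Tagln (SE, limma adjusted p = 3.67e-19). Of 16 other contractile and pericyte genes, 9 rose, led by the smooth muscle genes Actg2 (r = 0.83), Myh11 (smooth muscle myosin, 0.78) and Tpm2 (tropomyosin, 0.60). Actg2 and Myh11 also had the highest r of all genes outside the list, followed by Bgn (0.65), Prss23 (0.63), Inpp1 (0.63) and Itga1 (0.61). The genes that fell most closely with Tagln were Plxdc1 (-0.65), the chemokine receptor Ackr3 (-0.65), Sema3a (-0.64) and Dnajc6 (-0.63). Myl9 had r = 0.47 and rho 0.63 with Tagln, r = 0.45 and rho 0.63 with Acta2, and r = 0.79 and rho 0.66 with the mean of B cell markers. Acta2 and Tagln each had r = 0.16 with that mean. Without array 19 of the Erg insertion label group, 6 members rose with Tagln, and Myl9, Fn1, Col6a1 and Col6a2 were lost. Without arrays 19 and 15, only Acta2, Col1a1 and Col3a1 were called. With the means of the blood cell marker lists in the fit, Acta2 and Col1a1 were. Such fits here and below held the erythroid, megakaryocyte and platelet, macrophage, neutrophil, B cell, and T and NK cell lists. The stem and progenitor list was not in them.

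The remaining members were also tried as predictors after the values had been seen, and results for a part of them are given here. With Acta2, 11 of the 32 other members rose (beside 1.49% of all genes) and none fell (beside 3.09%), and with Col1a1 11 rose (beside 0.457%) and none fell (beside 0.088%). With Fn1, 9 rose (beside 1.41%) and none fell (beside 0.033%), and these were 6 collagens of interstitial matrix, both collagen IV chains and Acta2. With the receptor Kdr, 7 rose (beside 2.94%) and none fell (beside 2.5%), 5 of them endothelial and the others the collagen IV chains. With Dcn 9 members rose, beside 9.59% of all genes, and none fell, beside 9.14%. The 9 were Cxcl13, Vcam1, Madcam1, Pdgfra, Col6a3, Sparc, Acta2, Tagln and Myl9. With Pdgfrb 8 rose (beside 9.7%) and Tek fell (beside 13.3%), and with Vcam1 7 rose (beside 11.4%) and Tek fell (beside 16.9%). For Myl9, 9 rose (beside 11.8%) and Cdh5 fell (beside 18.6%). For Tek, 2 members rose (6.25%), below the 8.44% of all genes, and none fell (beside 4.29%). With Lum, Madcam1, Flt1, Tie1, Eng, Emcn or Lyve1 as predictor no other member was called. Few genes of any kind rose with them: 0% of all genes with Lum, Tie1 and Emcn, 0.0165% with Flt1, 0.0715% with Madcam1, 0.347% with Eng and 0.55% with Lyve1.

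The lymphoid stroma mean had r = 0.77 with the macrophage list mean, 0.76 with that of B cells, 0.23 with that of T and NK cells and 0.42 with the fibroblast and matrix mean, and the differences between these were not tested. Cxcl13 and Vcam1 had r = 0.67 and rho 0.63 (permutation p = 1e-05 for each), and Cxcl13 and decorin r = 0.68 and rho 0.59. With Cxcl13 as predictor, 6 of the 32 other members rose (18.8%: Dcn, Vcam1, Myl9, Pdgfra, Madcam1 and Pecam1), beside 12.3% of all genes, and Cdh5 fell. This share is close to the background, since 12.3% of all genes rose and 16.9% fell with Cxcl13, so it is not particular to stroma. Among marker lists, 12 of 13 B cell genes rose with Cxcl13 and 10 of 17 erythroid genes fell. Of 18 other lymphoid stroma genes 9 rose, with Icam1 (an adhesion molecule, r = 0.84), Clu (clusterin, 0.80) and Mfge8 (0.72) ahead, the last pair being made by follicular dendritic cells. Cd86, a costimulatory molecule of antigen presenting cells, had the highest r of all genes (0.86), followed by Il18 (0.84), Dram1 (0.84), Icam1, Tpd52 (0.83) and S1pr3 (0.83), and the genes at the other end were Pitpnc1 (-0.74), Cdan1 (-0.73), the transferrin receptor Tfr2 (-0.73) and Hk1 (-0.72). With the blood cell list means in the fit, 0 members rose with Cxcl13. Cxcl12 had r = 0.64 with Vcam1 and 0.32 with Cxcl13.

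Of the 10 other endothelial members, 6 rose with VE-cadherin, and Tek (r = 0.16), Emcn (0.28), Lyve1 (-0.05) and Pecam1 (-0.13) did not pass the test. Cdh5 was taken as a further predictor after Pecam1 had been seen not to follow the endothelial genes. With Cdh5, 9 of the 32 other members rose (28.1%), beside 8.02% of all genes. These were the endothelial genes Kdr, Stab2, Tie1, Plvap, Flt1 and Eng, both collagen IV chains and Sparc. Cdh5 had the highest rank correlation of the members with the 3′ minus 5′ difference of control genes, a measure of RNA quality (rho 0.49), followed by Kdr and Stab2 (0.42 each), and with that difference in the fit 8 members rose, beside 9.49% of all genes. No member fell, beside 3.54% of all genes. Cdh5 and Kdr had r = 0.73 and rho 0.74 (permutation p = 1e-05 for each), with a slope of 0.71 ± 0.10 (SE, limma adjusted p = 4.44e-06). Of 26 other endothelial genes 18 rose with Cdh5, among them Mmrn2 (r = 0.70), Robo4 (0.69) and Sox18 (0.69), the last a transcription factor of endothelium. The genes outside the list with the highest r were Abcc9 and Kcnj8 (0.79 each), which encode the subunits of 1 potassium channel, then Fam167b (0.78), Adgrf5 (0.75), Pdlim5 (0.75) and Hivep1 (0.75). Brd9 (-0.64), Lpcat1 (-0.63), Psd4 (-0.63) and Coro1a (-0.62), the last an actin regulator of leukocytes, had the lowest r. The same 9 members were called without array 15 of the Erg insertion label group, and 8 of them without the 2 arrays most extreme for Cdh5. Within the lines 1 member was called in line 6070 and 3 in line 6113, with fewer arrays in each fit.

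With Plvap as predictor, chosen after the values had been seen, 5 members rose (15.6%: Tek, Kdr, Cdh5, Eng and Stab2), beside 1.72% of all genes, and none fell, beside 1.78%. Tek and Plvap had r = 0.57 and rho 0.58, and Tek and Lyve1 r = 0.48 and rho 0.51, and Tek and Cdh5 r = 0.16 and rho 0.36. Of 13 T and NK cell markers 8 fell with Plvap. The genes most like Plvap were Tgfbr3 (r = 0.72), Tmem204 (0.70) and Glul (0.70), and Cd247, the zeta chain of the T cell receptor, was near the other end (-0.67). Arrays 10 and 26 of the Erg insertion label group held the lowest Plvap values. Without either of them 3 members were called and Eng and Stab2 were lost, and without both, or on ranks, 0 were. With the blood cell list means in the fit, 0 members rose with Plvap. Of the contractile genes, Tagln (r = -0.41) and Acta2 (r = -0.34) ran against Plvap without passing the test, and Myl9 had r = -0.04.

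With Pecam1 as predictor, 5 of the 32 other members rose (15.6%: Pdgfrb, Myl9, Pdgfra, Vcam1 and Cxcl13), beside 10.5% of all genes, and none fell, beside 9.26%. None of the 10 other endothelial members was among them, and Pecam1 and Cdh5 had r = -0.13 and rho -0.12 (permutation p = 0.385 and 0.411). The share is again close to the background. Of 26 other endothelial genes 4 rose and 2 fell, led by Cd34 (r = 0.55), S1pr1 (0.45) and Nrp1 (0.38), all of which some blood cells also express. Of the marker lists, 9 of 13 B cell, 8 of 16 megakaryocyte and platelet and 8 of 17 macrophage genes rose with Pecam1, and 10 of 17 erythroid genes fell. The CD31 protein is also carried by platelets and leukocytes. The genes most like Pecam1 were Arap1 (0.75), Nagk (0.74), Map7d1 (0.73), Wdr1 (0.73), Ap3m2 (0.72) and Cdc42se2 (0.71). Cpox, an enzyme of haem synthesis (-0.65), Txnl1 (-0.65), Ppig (-0.65) and Ybx3 (-0.64) were at the other end. The calls with Pecam1 were 0 once the blood cell list means were in the fit, and 3 without array 2 of the Erg insertion label group, which lost Cxcl13 and Vcam1. They were 8 without array 11, with Col6a1, Col6a2 and Dcn gained.

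**Figure D3:**
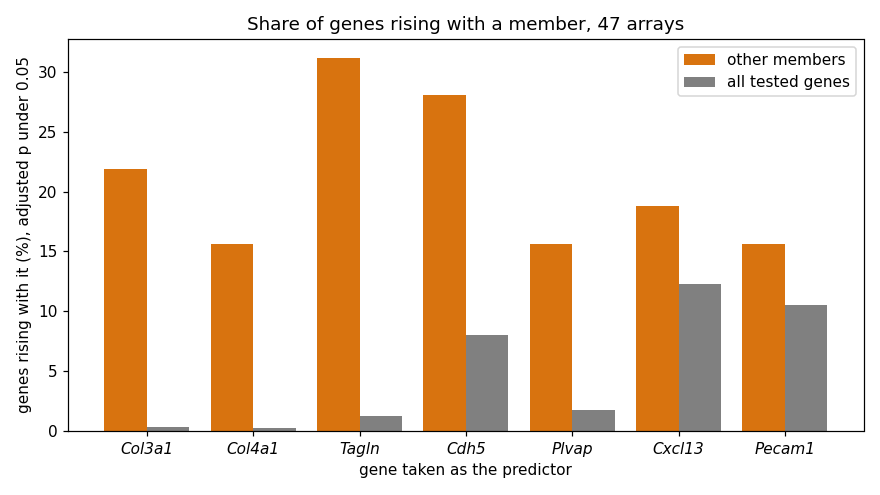
Percentage of genes that rose with each of 7 members (horizontal axis) at an adjusted p under 0.05, for the 32 other members (orange) and for all tested genes (grey), over 47 arrays. The bars differ widely for Col3a1 (21.9% and 0.347%), Col4a1 and Tagln, and little for Cxcl13 (18.8% and 12.3%) and Pecam1 (15.6% and 10.5%).

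**Figure D4:**
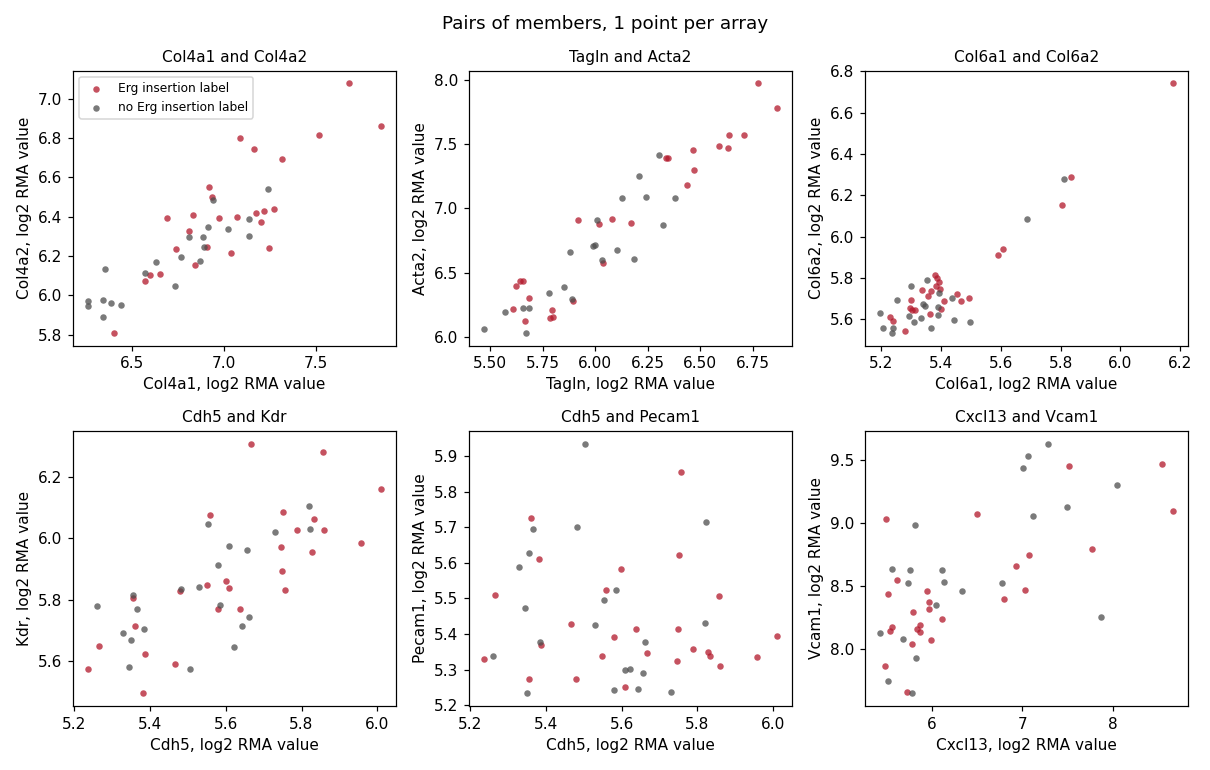
Log2 RMA values of 6 pairs of members, 1 point per array, red for the Erg insertion label and grey for its absence. Col4a1 with Col4a2 and Tagln with Acta2 form narrow bands, Col6a1 with Col6a2 has most arrays in 1 corner and few along the diagonal, Cdh5 rises with Kdr, and Cdh5 with Pecam1 shows no band (r = -0.13).

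The blood cell content of the spleens moved with some stromal roles and less with others. Its part in the relations was not tested beyond the fits named above. The fibroblast and matrix mean had r = 0.55 with neutrophils, 0.51 with macrophages and 0.49 with megakaryocytes and platelets. For the same lists the contractile mean had r = 0.50, 0.42 and 0.38, and the collagen IV mean 0.15, 0.17 and 0.24. The endothelial mean had r = -0.53 with T and NK cells, where rho was weaker at -0.39, and r = 0.29 and rho 0.29 with erythroid cells. Single members could differ from their role. With T and NK cells, Pdgfrb had r = 0.59 and rho 0.46, where the fibroblast and matrix mean had r = 0.20 and rho 0.18. Pecam1, alone among the endothelial members, had a positive r with them (0.36). Other members went the same way as their role mean: Pdgfra had r = 0.75 and rho 0.70 with macrophages, and Plvap r = -0.61 and rho -0.41 with T and NK cells. The lists were broad: the summed log2 level of the 13 B cell genes ran from 69.63 to 102.69 in the arrays with the Erg insertion label and from 72.58 to 105.38 in those without, and that of the 17 macrophage genes from 105.07 to 122.89 and from 104.38 to 119.39. The 17 erythroid genes summed to 99.72 to 145.68 and 108.54 to 149.68, the 13 T and NK cell genes to 69.41 to 99.98 and 69.87 to 99.00, and the 13 neutrophil genes to 68.39 to 112.17 and 68.73 to 115.25. Above log2 7 in no array were 4 of the B cell genes, 7 macrophage, 2 erythroid, 3 T and NK cell and 3 neutrophil genes. Role means had r with the stem and progenitor list of 0.30 (fibroblast and matrix), 0.32 (collagen IV), 0.28 (endothelial), 0.11 (contractile) and 0.10 (lymphoid stroma). That list was not in the fit with blood cell list means. With the means of all the other lists in the fit, 4 members still rose with Col3a1, 5 with Col4a1, 2 with Tagln and 6 with Cdh5. The shares of all genes that rose were 0.171%, 0.402%, 0.0825% and 0.853%. With Cxcl13, Pecam1 and Plvap 0 members rose in that fit, beside 0.391%, 0% and 0.022% of all genes.

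**Figure D5:**
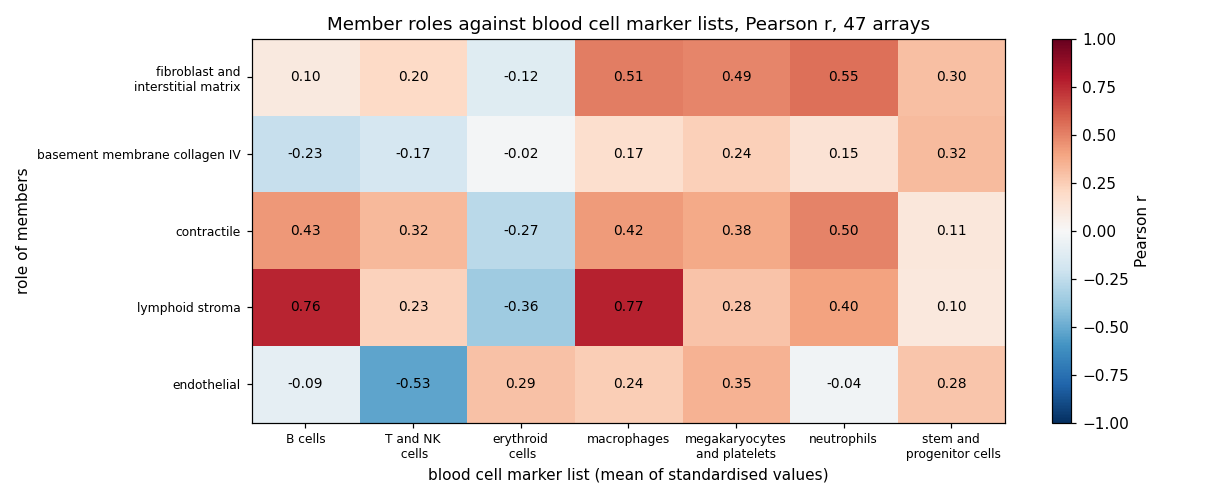
Pearson r over 47 arrays between the mean of each role of members (rows) and the mean of each blood cell marker list (columns), with the value printed in each cell. The strongest cells are lymphoid stroma with macrophages (0.77) and with B cells (0.76), and the lowest is endothelial with T and NK cells (-0.53).

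RNA quality was read from the difference between 3′ and 5′ probe sets of control genes, which ran from 0.65 to 2.96 log2 units with a median of 1.31. With it, 2 of 33 members rose, Kdr (r = 0.37, limma adjusted p = 0.0474) and Stab2 (r = 0.40, limma adjusted p = 0.0320), beside 10.4% of all genes, and none fell, beside 8.14%. By rank the highest values were those of Cdh5 (rho 0.49), Kdr and Stab2 (0.42 each). With this difference in the fits, 7 members rose with Col3a1, 6 with Col4a1, 11 with Tagln, 8 with Cxcl13, 6 with Pecam1, 8 with Cdh5 and 4 with Plvap. The shares of all genes that rose were then 0.358%, 0.248%, 1.45%, 12.4%, 11.1%, 9.49% and 1.66%.

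None of the members passed the test between the label groups. For the Erg insertion label, fitted in limma with line and sex label as covariates, 0 of 33 members and 0 of 18178 genes (0%) were called at an adjusted p under 0.05, and 666 genes (3.66%) had an unadjusted p under 0.05. The age label was not in this fit, and its mean was 72.4 ± 12.9 (SD, n = 26) with the insertion label and 56.1 ± 13.2 (SD, n = 21) without it. The members with the smallest p were both collagen IV chains and Col1a2. Col4a1 ran from 6.40 through 7.00 to 7.85 in the 26 arrays with the label and from 6.26 through 6.77 to 7.24 in the 21 without it. The groups overlapped over most of their range, and the difference was 0.30 ± 0.10 log2 units (SE, unadjusted p = 0.00355 and adjusted p = 0.999 in limma). Col4a2 ran from 5.81 through 6.39 to 7.08 with the label and from 5.89 through 6.17 to 6.54 without, and differed by 0.22 ± 0.07 (SE, unadjusted p = 0.00437, limma). Col1a2 ran from 6.54 through 7.74 to 9.74 and from 6.53 through 7.40 to 8.19, and differed by 0.49 ± 0.16 (SE, unadjusted p = 0.00467, limma). In all, 22 of 33 members were higher with the label, beside 52.6% of all genes, and 4 had an unadjusted p under 0.05. The endothelial marker Pecam1 differed by -0.02 ± 0.05 and Cdh5 by 0.09 ± 0.06 log2 units (SE, n = 26 and n = 21). These values stand on labels that disagree with Xist in 24 arrays, and the smallest p-values belong to members that vary together, so they are not separate observations.

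Between the transposon lines, 0 members and 0 genes (0%) were called in limma and 540 genes had an unadjusted p under 0.05. Cxcl13 had the smallest p, at a mean of 6.60 ± 0.90 (SD, n = 21) in line 6113 and 6.18 ± 0.82 (SD, n = 26) in line 6070, with an unadjusted limma p = 0.117. For the age label, 0 members and 0 genes (0%) were called in limma, and 688 genes had an unadjusted p under 0.05. Col3a1 had a slope of 0.11 ± 0.06 log2 units per 10 units of the label (SE, unadjusted limma p = 0.0864) and Fn1 0.11 ± 0.07 (SE, unadjusted limma p = 0.0880). Slopes were positive for 27 of 33 members and for 41.4% of all genes. Members vary together, so the signs here and for the Erg label are not separate observations. The age label stands on the same unsettled pairing of labels and arrays. The product of Erg label and line gave 0 calls (0%), with 1286 genes at an unadjusted p under 0.05 in limma, and its smallest p among members was 0.113, for Lum.

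Of the 33 members, 19 had more than 1 single-gene probe set. The r with the brightest set was 0.88 for Col4a1, 0.92 for Col3a1, 0.83 for Col1a1 and 0.72 and 0.76 for Vcam1. The second sets of Cdh5 (median 5.07, r = -0.19) and Dcn (median 5.05, r = 0.08) stayed at the floor and did not follow the brightest set. Nor did the further sets of Acta2 (r = 0.01 and 0.08) and of Pdgfra (r = 0.06 and -0.07). Pecam1, Plvap, Tagln, Myl9, Col4a2, Col6a1, Col6a3, Lum, Madcam1, Kdr, Tek, Tie1, Emcn and Stab2 had 1 probe set each. Their values have no second measurement.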

How the data were processed

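RNA from 47 leukaemic spleens, 1 Affymetrix whole-genome mouse array per mouse, was measured after labelling from the 3′ end, per the labels' protocols. Per the submitters' processing notes, the authors deposited log2 values from RMA (affy, R 2.15). This method normalizes arrays to each other, so changes in total RNA are lost. No counts exist, and the number of arrays limits the precision. The platform annotation named the genes, with several genes on 932 probe sets and none on 9160, which were not used. A gene entered the tests when 9 or more arrays exceeded log2 5. Fits used limma 3.58.1 (R 4.3.3) and Benjamini-Hochberg p-values over the whole table, and the fits were tested on simulated data. Permutation tests were two-sided with 100000 resamples. Members and gene lists were chosen with earlier results of these data known. Named genes were the members, for each predictor the genes outside the list with the highest and lowest r, and the 3 highest of each stromal list; Cdh5, Plvap and single arrays left out were added after the values were seen. Scanner files were not used here.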

Additional observations from a re-analysis of the deposited data

How the results depend on the processing

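No call appeared or was lost in the label comparisons under any alternative run (other probe sets, filters, covariates, single lines, identifier number as a block): each gave 0 members. The role mean correlations moved by less than their sampling interval in the alternatives run, but 3 pairs near 0 changed sign: contractile with endothelial from -0.16 to 0.08 in line 6113, lymphoid stroma with endothelial from -0.03 to 0.10 in line 6113, and collagen IV with lymphoid stroma from 0.03 to -0.05 in line 6113 and to -0.04 without the 2 farthest arrays. The counts of members rising with a predictor were less stable. Within line 6070 they were 0 for Col3a1, 2 for Col4a1, 1 for Tagln, 3 for Cxcl13 and 0 for Pecam1, and within line 6113 they were 1 for Col3a1, 2 for Col4a1, 1 for Tagln and 2 for Pecam1, with fewer arrays in each fit. Without the 2 arrays farthest from the predictor's median they were 1 for Col3a1, 2 for Col4a1 and 3 for Tagln, and on ranks 1 for Col3a1. With blood cell list means in the fit they were 4 for Col3a1, 2 for Tagln, 0 for Cxcl13 and 0 for Pecam1. Averaging probe sets gave 9 members for Col4a1, and the stricter filter, which tests fewer genes, 3 for Col4a1 and 3 for Cxcl13. Leaving out single arrays, chosen after seeing the data, gave 4 to 10 members for Col3a1, 4 to 7 for Col4a1, 6 to 10 for Tagln, 5 to 7 for Cxcl13 and 3 to 8 for Pecam1. At log2 6 in place of log2 7, 7 members were above the mark in no array and 7 in all arrays. Apart from the line fits and the stricter filter, the cause was not tested. No paired analysis was possible because replicate numbers were given in accession order and the labels pair no mice.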
